A study of Mus musculus with 4 samples.

Results

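The line labelled CT26-shCDK8 was compared with the line labelled CT26-pLKO.1, gene by gene. Both were chosen by their labels, and together they are 2 of the 4 arrays of the series. CT26 is an established line of mouse colon carcinoma cells, here grown in culture. The pLKO.1 line carries a lentiviral vector made to deliver short hairpin RNAs, and the shCDK8 line is named for a hairpin against Cdk8. The other arrays held CT26 cells given the solvent DMSO for 24 h and CT26 cells given 5 µM Senexin B for 24 h, an inhibitor of CDK8 and its paralog CDK19. Neither line of the main comparison is labelled as having received either agent. The sources used here do not give the hairpin sequence, or whether each line is a clone or a pool of transduced cells. Of 22180 genes named by a probe set with a single symbol, 14272 were counted as expressed, which means a value of at least 5.98 on 1 or more of the 4 arrays. Each value is a log2 signal from 1 array, so a difference of 1 is 2-fold. There was 1 array a side. No difference has a replicate check or a test, and every statement compares these arrays, not the conditions.

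CDK8 is a cyclin-dependent kinase that, with cyclin C, MED12 and MED13, forms the kinase module of Mediator, the complex that carries signals from transcription factors to RNA polymerase II. The module docks onto Mediator reversibly and can raise or lower the transcription of its target genes. In colon cancer CDK8 is known as an oncogene that supports transcription driven by beta-catenin. It is also known to act on transcription factors of the interferon, hypoxia, Notch, SMAD, p53 and sterol pathways. The series title names the matrix metalloproteinases, secreted or membrane-bound enzymes that cut the extracellular matrix.

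In shCDK8, 46 of the 14272 expressed genes (0.322%) lay at least 2-fold under their pLKO.1 value, and 28 (0.196%) lay at least 2-fold over it. Between the control arrays, pLKO.1 minus DMSO, 2 genes were 2-fold lower (0.014%) and 12 were 2-fold higher (0.0841%). The pLKO.1 array stands in both differences, and the controls are no replicates of each other, being a vector line and a culture with solvent. The difference of shCDK8 and pLKO.1 had a median of 0.0038 over the expressed genes, with 49.1% of them below 0, and 1% of them lay below -0.71 and 1% above 0.69. The array medians over all probe sets were 6.02 for pLKO.1 and 6.03 for shCDK8.

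**Figure D1:**
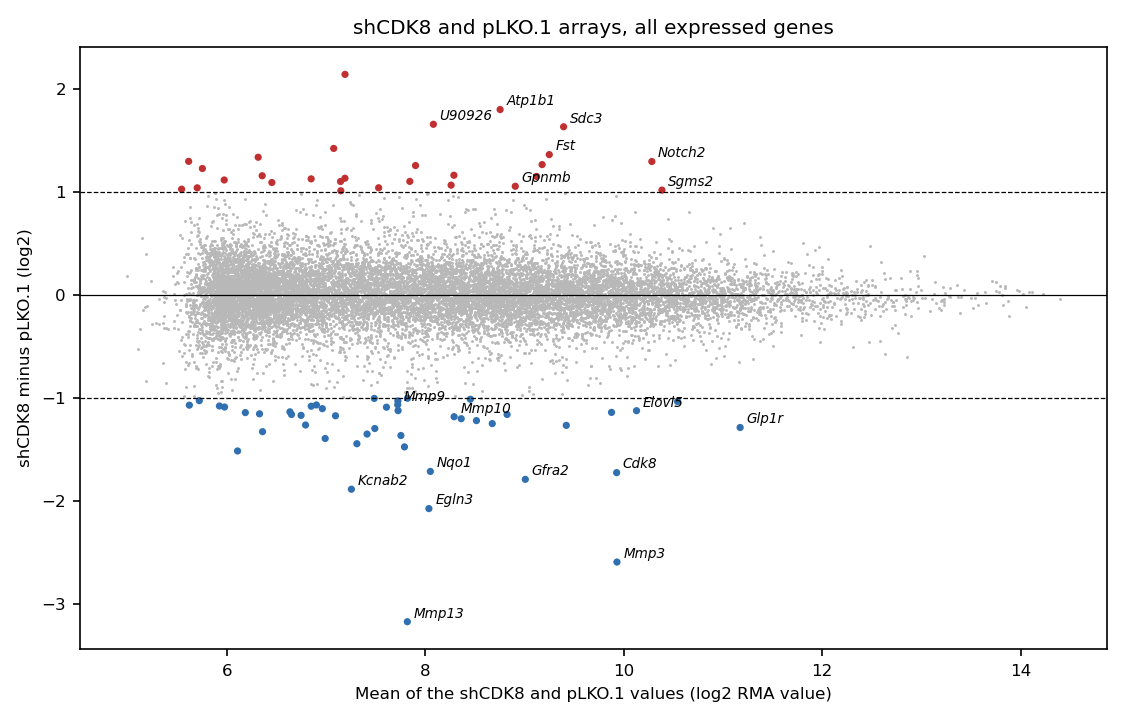
Difference of the shCDK8 and pLKO.1 arrays (log2, vertical axis) against the mean of both (log2 RMA value, horizontal axis), with 1 point for each of 14272 expressed genes. Blue points are the 46 genes at least 2-fold lower, red points the 28 at least 2-fold higher, dashed lines mark 2-fold, and Mmp13 and Mmp3 lie farthest from 0.

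The hairpin's target is the check of the labels. The Cdk8 value was 9.07 in shCDK8, against 10.79 in pLKO.1, 10.69 with DMSO and 10.58 with Senexin B. The shCDK8 array was therefore the low one, 3.31-fold under pLKO.1 (a difference of -1.72), while the other 3 arrays lay close together. The nearest expressed protein-coding neighbour of Cdk8 in RefSeq order, Rnf6, differed by -0.048.

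The partners of CDK8 were close on both arrays. The paralog kinase gene Cdk19 stood at 8.17 in pLKO.1 and 8.36 in shCDK8. Ccnc, which encodes cyclin C, stood at 8.59 and 8.78. Among the scaffold genes Med12 differed by -0.01, Med13 by -0.08, Med12l by -0.10 and Med13l by -0.24. Of 7 module genes Cdk8 alone was past 1.5-fold.

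Beyond the module, all 26 other listed Mediator subunits were expressed, with a median difference of 0.018. Med30, a subunit of the Mediator head, stood at 8.43 in DMSO, 8.28 in Senexin B, 8.32 in pLKO.1 and 7.32 in shCDK8, so it was low on the hairpin array alone and lay just past 2-fold. Med14, the backbone subunit that joins the parts of Mediator, was at -0.59, and Med10 at -0.57. The remaining 23 lay between -0.34 (Med11) and 0.35 (Med6). Of 10 expressed transcription kinases, cyclins and regulators, among them Cdk7 (0.26) and Cdk9 (0.25), none was past 1.5-fold. Of 11 RNA polymerase II subunits Polr2l was at -1.15, but its shCDK8 value of 5.75 is under the expression limit, and its Senexin B value of 5.52 is lower still. With lower values set to the limit as a floor, Polr2l was at -0.93, and Polr2f followed at -0.42.

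The largest differences of the comparison were in secreted metalloproteinases. Mmp13, collagenase 3, stood at 8.93 in DMSO, 7.41 in Senexin B, 9.41 in pLKO.1 and 6.23 in shCDK8. Mmp3, stromelysin 1, stood at 10.53, 9.79, 11.23 and 8.64 on the same arrays in that order. In both genes shCDK8 was the lowest of the 4 arrays and pLKO.1 the highest, and shCDK8 lay at least 2-fold under each of the other 3. The shCDK8 value was 9.02-fold under pLKO.1 for Mmp13 and 6.04-fold for Mmp3.

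Mmp10, stromelysin 2, stood at 9.10 in DMSO, 6.94 in Senexin B, 8.88 in pLKO.1 and 7.70 in shCDK8, and so was lowest with the inhibitor. Mmp9, gelatinase B, stood at 8.46, 7.88, 8.25 and 7.19, lowest with the hairpin. Their differences from pLKO.1 were -1.18 and -1.06. Mmp13, Mmp3 and Mmp10 lie in 1 cluster on mouse chromosome 9, and Mmp9 lies on chromosome 2. Mmp19, another secreted member, stood at 8.41 in DMSO, 8.26 in Senexin B, 8.91 in pLKO.1 and 8.29 in shCDK8. There pLKO.1 was the array apart, and the difference was -0.61 from pLKO.1 and -0.12 from DMSO.

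The stretches of DNA just before these starts are shown because the 3 clustered genes were low together. For each, the 250 bases before the annotated start are given from RefSeq on GRCm38.p6, plus strand, 5′ to 3′. Capitals mark matches to TGANTCA, the core to which AP-1 factors (Fos and Jun) can bind, and to TATAAA, the TATA box.
Mmp13: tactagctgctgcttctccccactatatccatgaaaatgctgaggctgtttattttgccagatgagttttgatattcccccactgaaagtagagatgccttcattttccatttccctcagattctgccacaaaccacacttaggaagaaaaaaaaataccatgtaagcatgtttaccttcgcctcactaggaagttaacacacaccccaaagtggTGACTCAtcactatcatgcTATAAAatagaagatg
Mmp3: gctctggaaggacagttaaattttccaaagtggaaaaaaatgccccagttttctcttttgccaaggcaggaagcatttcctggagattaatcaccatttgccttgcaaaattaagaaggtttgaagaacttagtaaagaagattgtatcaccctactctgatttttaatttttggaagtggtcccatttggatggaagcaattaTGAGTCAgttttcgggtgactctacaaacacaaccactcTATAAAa
Mmp10: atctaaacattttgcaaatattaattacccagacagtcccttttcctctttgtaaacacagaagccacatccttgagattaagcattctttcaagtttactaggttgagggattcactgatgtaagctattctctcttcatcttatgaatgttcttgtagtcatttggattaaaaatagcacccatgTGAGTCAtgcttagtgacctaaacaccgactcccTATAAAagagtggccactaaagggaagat
The windows are chr9:7272264-7272513 for Mmp13, chr9:7445572-7445821 for Mmp3 and chr9:7502092-7502341 for Mmp10. Each holds 1 match to TGANTCA, which begins 35, 46 and 63 bases before the start in that order, and 1 match to TATAAA nearer to it. TGANTCA, searched on both strands, occurs in 6.75% of 32851 such windows in the table, and TATAAA, searched on the strand of the gene, in 7.59%. Of the 46 lower genes 34 had a window in the table. A match to TGANTCA was found for 4 of them, against 5.81% of the 11151 expressed genes with a window. These 4 were Apol9b and the 3 clustered genes, whose windows were shown because they were low together. The 4 of 34 is therefore no result about the lower genes as a set. ACGTG, the core of the hypoxia element, also searched on both strands, was found in 11 of the 34, Egln3 and Slc16a3 among them, against 23.9% of those 11151. TATAAA was found in 7 of the 34, the 3 clustered genes among them, against 5.39%. The interferon-stimulated response element was found in 4 of the 34, Mmp13 among them, against 2.94%. The TATAAA and interferon counts both hold clustered genes, so they too are no result about the lower genes as a set. Of the higher genes 22 had a window. The counts there were 1 for TGANTCA, 2 for TATAAA, 1 for the interferon element and 3 for ACGTG. None of these shares was tested. A match is a description of the letters and not a bound site.

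The remaining metalloproteinases were closer. Of 23 listed genes 22 were measured and 12 expressed, and the list median was -0.24 beside 0.0038 for all expressed genes. Mmp14, the membrane-anchored activator of Mmp2, was 0.48 higher in shCDK8 and Mmp11 0.18 higher, while Mmp2 was at -0.26, Mmp24 at -0.21, Mmp17 at -0.14, Mmp23 at -0.0041 and Mmp28 at 0.10. The 10 measured members that stayed under the limit on all arrays were Mmp1a, Mmp1b, Mmp7, Mmp8, Mmp12, Mmp16, Mmp20, Mmp21, Mmp25 and Mmp27.

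The inhibitors of these enzymes went different ways. Timp3, which is held in the matrix, stood at 9.09 in DMSO, 10.86 in Senexin B, 8.91 in pLKO.1 and 9.90 in shCDK8, a difference of 0.99 that falls just short of 2-fold. Timp1 stood at 10.53, 9.70, 10.43 and 9.64, a difference of -0.78, so that the inhibitor and hairpin arrays were the low pair. Reck, a membrane-anchored inhibitor, was at 0.43, Timp2 at -0.07, and Timp4 (0.11) was not expressed.

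Other proteases differed less. Of 17 expressed ADAM and ADAMTS genes 2 were past 1.5-fold, both lower, where 1.85% of all expressed genes were: Adamts9 (-0.77) and Adam8 (-0.66). Adam19 was the highest, at 0.46. In the plasminogen system, which makes plasmin at the cell surface, Plau (urokinase) was at 0.67 and Plat (tissue activator) at 0.40. All 5 expressed members lay above 0, where 50.8% of all expressed genes did. Among them Serpinf2 was at 0.04, and Plg (0.16) was under the limit on both arrays compared. Among 8 cathepsins the lysosomal protease gene Ctsl was at -0.60 and Ctsk at -0.43, while Ctso and Ctsz were both at 0.35.

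Genes for the matrix itself were mostly level, with a few exceptions. Col3a1, the chain of type III collagen, stood at 10.08 in DMSO, 10.65 in Senexin B, 10.05 in pLKO.1 and 8.79 in shCDK8. It was the single one of 22 expressed collagen genes past 1.5-fold, and the collagen median was -0.044. Omd, which encodes the small proteoglycan osteomodulin, was at -1.09 but fell under the limit in shCDK8 (5.43), and was at -0.54 with the limit as floor. Lama3, a laminin chain of epithelial basement membranes, was at -0.73 from pLKO.1 and -0.13 from DMSO, and no integrin of 15 was past 1.5-fold.

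Core proteins that carry heparan sulfate chains moved apart. Sdc3, syndecan 3, stood at 8.58 in DMSO, 8.32 in Senexin B, 8.58 in pLKO.1 and 10.21 in shCDK8, 3.11-fold over pLKO.1. The hairpin array was the high one, and the other 3 lay close together. Sdc1 (0.18), Sdc2 (0.00040) and Sdc4 (0.22) differed little, and Gpc1, glypican 1, was at -0.69. Csgalnact1, which starts chondroitin sulfate chains, was at -1.10. Ndst4, a heparan sulfate sulfotransferase, was at -1.08, and there the pLKO.1 value of 7.39 was the one apart from 6.38 in DMSO, 6.41 in Senexin B and 6.31 in shCDK8.

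**Figure D2:**
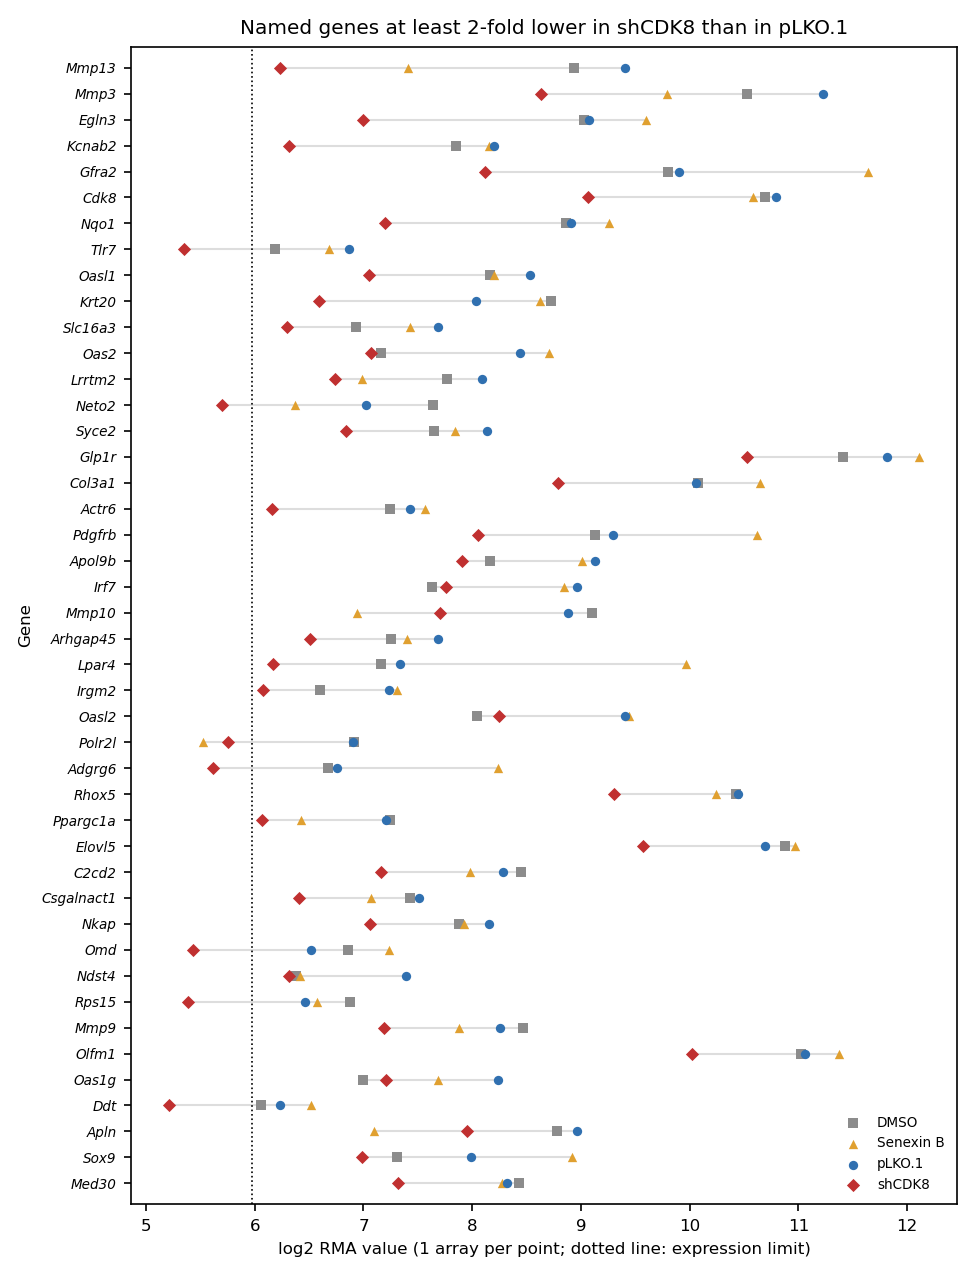
Log2 RMA values on all 4 arrays (horizontal axis, 1 marker per array) for the 44 named genes whose shCDK8 value lay at least 2-fold under pLKO.1, ordered by the size of the difference. The dotted line is the expression limit of 5.98, and red diamonds (shCDK8) are leftmost in all but Irf7, Mmp10, Oasl2, Polr2l, Oas1g and Apln.

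Oxygen and redox genes held some of the next largest differences. Egln3, whose product PHD3 hydroxylates HIF proteins, stood at 9.03 in DMSO, 9.60 in Senexin B, 9.07 in pLKO.1 and 6.9998 in shCDK8, 4.21-fold under pLKO.1. Slc16a3, which exports lactate, stood at 6.93, 7.43, 7.69 and 6.29, so its difference of -1.39 drops to -0.64 against DMSO. Other genes induced by low oxygen were split, with Ndrg1 at -0.75, Higd1a at -0.74, Vegfa at 0.34 and the carbonic anhydrase gene Car12 at 0.99. Of 42 expressed genes of the HIF system, its targets and glycolysis 4 were past 1.5-fold lower and 1 was past 1.5-fold higher, where 1.85% and 1.67% of all expressed genes were, and the median was 0.011. Hif1a itself was at -0.16.

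Nqo1, a quinone reductase under the control of NRF2, stood at 8.86 in DMSO, 9.25 in Senexin B, 8.91 in pLKO.1 and 7.19 in shCDK8. The hairpin array was again the low one, 3.28-fold under pLKO.1. Hmox1, heme oxygenase 1, was at -0.68, the glutathione reductase gene Gsr at -0.49 and Aldh3a1 at -0.51. Gsta4, a glutathione transferase that clears lipid aldehydes, was 1.15 higher, from a pLKO.1 value of 8.54 that was the lowest of the 4, and was 0.50 higher than in DMSO. Gstm2, another glutathione transferase, was 0.76 higher, from a pLKO.1 value of 5.72 under the limit, and 0.50 higher with the floor. Nfe2l2, the NRF2 gene, was at 0.47, and the 24 expressed targets had a median of -0.020.

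Some receptor and channel genes were among those 2-fold lower. Gfra2, a receptor for the GDNF family ligand neurturin, stood at 9.80 in DMSO, 11.64 in Senexin B, 9.90 in pLKO.1 and 8.11 in shCDK8. The inhibitor array was the high one and the hairpin array the low one. Of the other GDNF family receptors Gfra3 was at -0.31, Gfra1 at -0.26, Gfra4 at 0.15, and the signalling partner Ret at 9e-05. Pdgfrb, a PDGF receptor, stood at 9.12, 10.62, 9.30 and 8.05 on the arrays in the same order, with the same high and low ends. Pdgfra was at 0.39, so the 2 PDGF receptor genes lay on opposite sides of 0.

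Kcnab2, an accessory subunit of potassium channels, stood at 7.86 in DMSO, 8.15 in Senexin B, 8.20 in pLKO.1 and 6.31 in shCDK8, 3.70-fold under pLKO.1. Of 13 expressed potassium channel genes Kcnh1 was next, at -0.84. Glp1r, the receptor for glucagon-like peptide 1, stood at 11.41, 12.11, 11.82 and 10.53, a difference of -1.29. Adgrg6, an adhesion receptor, was at -1.14 with a shCDK8 value under the limit, and at -0.78 with the floor. The lysophosphatidic acid receptor gene Lpar4 was at -1.17, from 7.33 to 6.16, with 9.97 in Senexin B.

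Synaptic and secreted proteins were also found there. Lrrtm2, a synaptic adhesion protein, was at -1.35, Neto2, an accessory subunit of kainate receptors, at -1.33, and Olfm1, a secreted olfactomedin, at -1.03. The shCDK8 value of Neto2, 5.70, was under the limit, and its difference was -1.05 with the floor. For Olfm1 the values were 11.03 in DMSO, 11.37 in Senexin B, 11.06 in pLKO.1 and 10.03 in shCDK8. Apln, the ligand of the apelin receptor, was at -1.01 from 8.96 to 7.95, and its Senexin B value was 7.10. Tlr7, an endosomal sensor of RNA, was at -1.51, with a shCDK8 value of 5.35 under the limit, and at -0.89 with the floor. Of 20 expressed innate sensors and adaptors no other was past 1.5-fold.

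Interferon genes lay mostly under their pLKO.1 values in shCDK8, and the pLKO.1 array stood above DMSO for them. Of 30 expressed effector genes 26 lay below 0, where 49.1% of all expressed genes did. Past 1.5-fold lower were 10 of the 30, where 1.85% of all expressed genes were. The effectors had a median of -0.36 here, of 0.53 between pLKO.1 and DMSO, and of 0.15 between shCDK8 and DMSO. The regulators, which include the interferon receptors, STATs and IRFs, had a median of -0.13 over 16 expressed genes. Lists of interferon genes were drawn up with earlier results of these data known.

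Single interferon genes showed this order of the arrays. Irf7, the factor that amplifies interferon production, stood at 7.63 in DMSO, 8.84 in Senexin B, 8.96 in pLKO.1 and 7.76 in shCDK8, so that shCDK8 lay 1.20 under pLKO.1 and 0.13 over DMSO. Oas2, an RNA-activated synthetase, stood at 7.16, 8.71, 8.44 and 7.07. Oasl2, an antiviral OAS-like protein, was at -1.16 from pLKO.1 and 0.20 from DMSO, and Oas1g at -1.03 and 0.21. Oasl1 differed from them: it stood at 8.16 in DMSO, 8.20 in Senexin B, 8.53 in pLKO.1 and 7.05 in shCDK8, at least 2-fold under each other array. Rtp4 (-0.999) fell just short of 2-fold, and Ifit1 (-0.90), Usp18 (-0.74), Sp100 (-0.68), Isg15 (-0.61) and Oas3 (-0.61) were past 1.5-fold. Against DMSO none of these 6 was, from -0.34 for Ifit1 to 0.47 for Usp18. Irgm2, a GTPase induced by interferon, was at -1.16 from pLKO.1 and -0.53 from DMSO, Igtp was at -0.69 and 0.06, and Apol9b at -1.22 and -0.26. Of 19 antigen presentation genes only the proteasome subunit gene Psmb10 (-0.60) was past 1.5-fold.

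Metabolic genes were spread over several pathways. Elovl5, which lengthens polyunsaturated fatty acids, stood at 10.88 in DMSO, 10.97 in Senexin B, 10.69 in pLKO.1 and 9.57 in shCDK8, at least 2-fold under each other array. Ppargc1a, the coactivator of mitochondrial genes, was at -1.13, from 7.20 to 6.07. Of 29 expressed respiratory chain genes 1 was past 1.5-fold, Ndufb3 at -0.70. Of 16 expressed cholesterol synthesis enzymes 10 were below 0, where 49.1% of all expressed genes were, and the median was -0.23. Ebp (-0.68) was the single one past 1.5-fold, and Hmgcs1 was at -0.42 and Mvd at -0.40. Of their 4 sterol regulators Srebf2 (-0.16), Scap (-0.26) and Insig1 (-0.37) lay below 0 and Insig2 (0.10) above. Amino acid and monocarboxylate transporters had a median of -0.29, with Slc7a5 at -0.53 and Slc1a4 at -0.51, and that median was -0.36 against DMSO.

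The lower genes also held nuclear and other proteins. Rhox5, a homeobox gene, stood at 10.43 in DMSO, 10.24 in Senexin B, 10.45 in pLKO.1 and 9.31 in shCDK8, so the hairpin array alone was low. Actr6, a part of the chromatin remodeller SRCAP, was at -1.26, Nkap, a nuclear protein linked to splicing, at -1.09, Syce2, of the meiotic synaptonemal complex, at -1.30, and C2cd2 at -1.12. Sox9, an HMG-box factor of intestinal crypts, was at -1.003 from pLKO.1 and -0.32 from DMSO. Arhgap45 was at -1.17. Krt20, a keratin of differentiated intestinal epithelium, stood at 8.72, 8.62, 8.03 and 6.59 on the arrays in the order DMSO, Senexin B, pLKO.1 and shCDK8, and shCDK8 was the lowest, at -1.44 from pLKO.1. Rps15 (-1.08) and Ddt (-1.03) had shCDK8 values under the limit, and were at -0.49 and -0.26 with the floor.

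Among the higher genes the largest difference was that of the unnamed noncoding locus C920009B18Rik, 2.14, picked out after its value was seen. Atp1b1, the beta subunit of the sodium pump, stood at 8.46 in DMSO, 6.60 in Senexin B, 7.85 in pLKO.1 and 9.66 in shCDK8, 3.49-fold over pLKO.1. The hairpin array was the high one and the inhibitor array the low one. The other expressed pump genes were Atp1b3 at -0.07, Atp1a4 at 0.01, and the regulators Fxyd6 at -0.10 and Fxyd5 at -0.46. Atp1a4 was under the limit on both arrays compared and reached it with Senexin B alone (6.07). U90926, a noncoding RNA gene, was at 1.66, from 7.25 to 8.91.

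**Figure D3:**
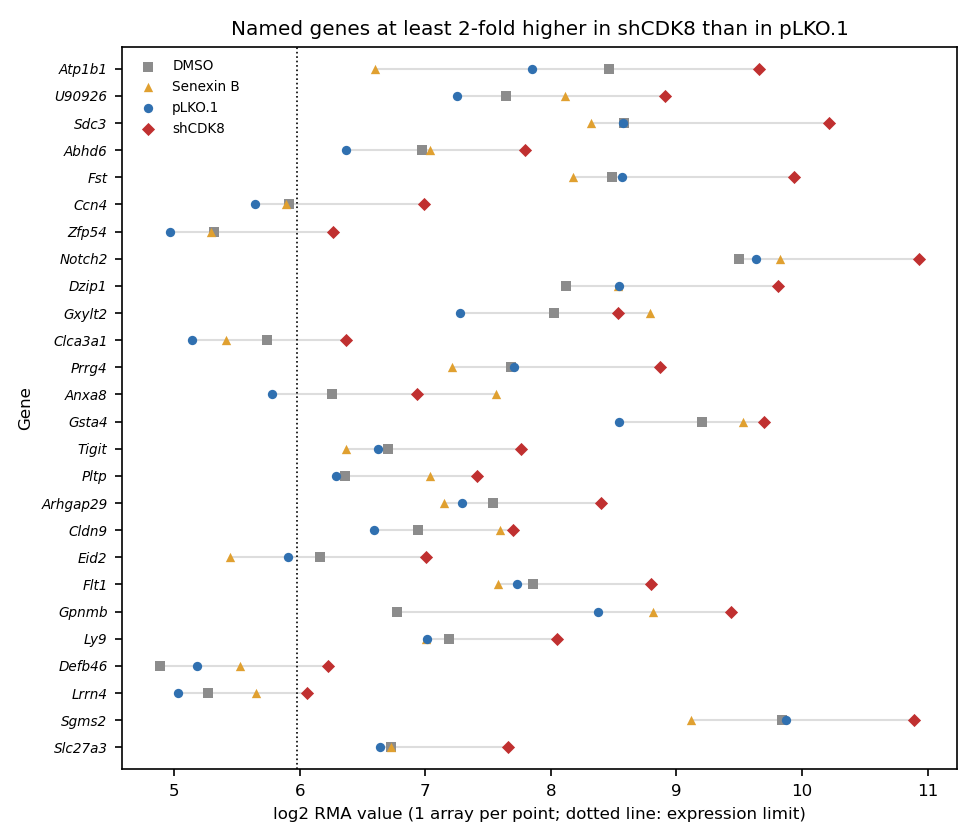
Log2 RMA values on all 4 arrays (horizontal axis, 1 marker per array) for the 26 named genes whose shCDK8 value lay at least 2-fold over pLKO.1, ordered by the size of the difference. Red diamonds (shCDK8) are rightmost in all but Anxa8 and Gxylt2, and blue circles (pLKO.1) of 7 genes lie left of the dotted expression limit.

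Notch genes gave 2 of the higher genes. Notch2, a receptor, stood at 9.50 in DMSO, 9.82 in Senexin B, 9.63 in pLKO.1 and 10.93 in shCDK8, 2.46-fold over pLKO.1 and at least 2-fold over each other array. Notch1 (-0.19), Notch3 (-0.30) and Notch4 (-0.12) lay below 0. Gxylt2, which adds xylose to Notch, was at 1.26 from pLKO.1 and 0.51 from DMSO, and was highest in Senexin B. The ligand gene Dll1 was at -0.47. The 7 target genes had a median of 0.038 and none was past 1.5-fold, from Heyl at -0.33 to Hey2 at 0.35.

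In the TGF-beta, activin and BMP families 4 of 48 expressed genes were past 1.5-fold higher (1.67% of all expressed genes were) and none lower: Fst, Fstl1, Smad9 and Tgfbr1. Fst, follistatin, which traps activin, stood at 8.48 in DMSO, 8.17 in Senexin B, 8.57 in pLKO.1 and 9.93 in shCDK8, 2.58-fold over pLKO.1. Of 11 expressed extracellular inhibitors and latency proteins 9 lay above 0, with a median of 0.20, where 50.8% of all expressed genes lay above 0. Fstl1 was at 0.60, Nbl1 at 0.48 and Fstl3 at 0.33. Smad9, a receptor-activated SMAD of the BMP branch, was at 0.96, and Tgfbr1, a type I receptor, at 0.60. Of 8 targets 7 lay below 0, where 49.1% of all expressed genes did, with Tgfbi at -0.54 and Pmepa1 at -0.39.

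Most Wnt genes showed small differences. Of 14 expressed receptors 11 lay above 0, where 50.8% of all expressed genes did, with a median of 0.16 and Lgr4, a receptor for R-spondins, at 0.53. Wnt10b was at 0.66, the inhibitor gene Dkk2 at 0.57, Bcl9, a beta-catenin cofactor, at 0.53, and Apcdd1, an inhibitor, at -0.54. Of 16 expressed beta-catenin targets 11 lay below 0, where 49.1% of all expressed genes did, with a median of -0.097. Axin2, the best known of them, was at -0.23, Notum at -0.50, Myc at -0.22 and Ccnd1 at 0.10. Sox9, also on that list, was the lowest, at -1.003 from pLKO.1 and -0.32 from DMSO. Ccn4, a matricellular protein on that list, was at 1.34, from 5.65 in pLKO.1, under the limit, to 6.99 in shCDK8, and at 1.01 with the floor. Its relative Ccn2, a connective tissue growth factor, was at -0.74.

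Of 29 expressed p53 targets 23 were above 0, where 50.8% of all expressed genes were, and the median was 0.31. Past 1.5-fold were 6, where 1.67% of all expressed genes were past 1.5-fold higher. The 6 were Eda2r (0.81), a death receptor, Cd80 (0.80), a T cell ligand, Dcxr (0.80), Trp53inp1 (0.70), Btg2 (0.61) and Tnfrsf10b (0.60). Mdm2, which degrades p53, was at 0.48, Ccng1 at 0.48 and Cdkn1a, the p21 gene, at 0.21. The median was -0.024 for pLKO.1 minus DMSO. Cell cycle genes differed less, and none of the replication or mitosis genes was past 1.5-fold. Of 31 replication genes 23 were below 0 (median -0.068), where 49.1% of all expressed genes were. Of 33 mitosis genes 24 were above 0 (median 0.088), where 50.8% of all expressed genes were.

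Lipid genes formed another part of the higher set. Abhd6, a monoacylglycerol lipase, stood at 6.97 in DMSO, 7.04 in Senexin B, 6.36 in pLKO.1 and 7.79 in shCDK8. Sgms2, which makes sphingomyelin, stood at 9.84, 9.12, 9.87 and 10.90, at least 2-fold over each other array. Pltp, a phospholipid transfer protein, was at 1.13, and Slc27a3, an acyl-CoA synthetase, at 1.01. The acetate-activating enzyme gene Acss2 was at 0.62 from pLKO.1 and 0.22 from DMSO, and the lipase gene Lipg at -0.67 and -0.44.

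Surface receptors and junction genes were among the rest. Flt1, a VEGF receptor, stood at 7.85 in DMSO, 7.58 in Senexin B, 7.73 in pLKO.1 and 8.79 in shCDK8. Tigit, an inhibitory receptor known from T and NK cells, was at 1.14, from 6.62 to 7.76, and Ly9, a SLAM receptor of lymphocytes, at 1.04. Cldn9, a tight junction claudin, was at 1.10, and Arhgap29 at 1.10. Dzip1, a protein of the ciliary base, stood at 8.12, 8.53, 8.54 and 9.81, and Prrg4 at 7.68, 7.21, 7.71 and 8.87, both highest with the hairpin. Gpnmb, a lysosomal and surface glycoprotein, stood at 6.77 in DMSO, 8.81 in Senexin B, 8.38 in pLKO.1 and 9.44 in shCDK8, so most of its spread lay between DMSO and the other 3 arrays.

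With Ccn4, 7 named higher genes had a pLKO.1 signal under the limit. Ccn4, Clca3a1, Zfp54, Lrrn4 and Defb46 reached the limit on the shCDK8 array alone, the one on which they were higher. Anxa8 and Eid2 reached it on the DMSO array too. Anxa8, an annexin, was at 1.16 and at 0.96 with the floor. Clca3a1 was at 1.23 and 0.39, the zinc finger gene Zfp54 at 1.30 and 0.29, Lrrn4 at 1.03 and 0.08, and the defensin gene Defb46 at 1.04 and 0.25. Eid2 was at 1.09 and stayed past 2-fold. Just short of 2-fold on the higher side were Aqp1 (0.99), Timp3 and Csta2 (0.99, and 0.40 with the floor), and just past it were Slc27a3, Sgms2 and Lrrn4. On the lower side Rtp4, Unc13c (-0.99) and Orm1 (-0.98, and -0.08 with the floor) fell just short, and Med30, Sox9 and Apln were just past it.

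Stress, growth and housekeeping lists differed less. Of 30 expressed stress and unfolded protein response genes 1 was past 1.5-fold, the chaperone gene Dnajc3 at 0.70, and the median was -0.15. The 12 heat shock genes had a median of -0.073, the 26 ribosome biogenesis factors -0.12, and the 24 NF-kappaB genes 0.073, with none past 1.5-fold. The 8 reference genes had a median of -0.042. Of 17 lysosomal genes Gpnmb alone was past 1.5-fold.

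Markers were read to see whether the cells looked alike on both arrays. Leukocyte defining genes Ptprc, Cd3e, Ms4a1 and Adgre1 were under the expression limit on all arrays. Of 13 measured leukocyte markers 4 were expressed: Cd14, Nkg7, Cd4 and Itgax. Cd14 was well over the limit, at 8.82 in pLKO.1 and 8.43 in shCDK8. Of 9 endothelial markers 6 were expressed, Egfl7, Tie1, Kdr and Cdh5 among them, and Emcn and Tek were under the limit on all arrays. Cdh5 was under the limit on both arrays compared (5.47 in pLKO.1 and 5.27 in shCDK8). Kdr was close to the limit, at 6.07 in pLKO.1 and, under it, 5.92 in shCDK8. Of 8 liver markers 3 were expressed (Apoa1, Hnf4a and Ttr), and Alb was under the limit on all arrays. No expressed marker of these lists was past 1.5-fold. The epithelial gene Epcam was under the limit on all arrays (4.53 in pLKO.1 and 4.38 in shCDK8), although CT26 is a carcinoma line. Krt8 and Krt18 were expressed and differed by 0.0040 and 0.036.

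Fibroblast markers did differ, with a median of -0.58 among 8 expressed genes, which was -0.23 against DMSO. Col3a1 and Pdgfrb were past 2-fold lower, and Fap (-0.94) and Dcn (-0.82) past 1.5-fold lower. Of the 8 genes 6 lay below 0, where 49.1% of all expressed genes did. The 2 above 0 were Pdgfra (0.39) and Thy1. The shCDK8 value of Fap, 5.47, was under the limit and its difference was -0.43 with the floor, and against DMSO Fap was at -0.42 and Dcn at -0.24, both short of 1.5-fold. Summed over the 10 measured markers on the linear scale the level was 5223 in DMSO, 9912 in Senexin B, 5787 in pLKO.1 and 4173 in shCDK8. The defining markers Lum and Postn were under the limit on all arrays, Thy1 was at 0.30 and Acta2, a smooth muscle actin, at 0.93. Another smooth muscle actin gene, Actg2, was at 0.59, and the mesenchymal cadherin gene Cdh11 at 0.64, or 0.36 with the floor. In RNA from a whole culture, fewer cells of a kind and less RNA per cell cannot be told apart. The part of such cells in the results for Col3a1, Pdgfrb and Dcn was not tested.

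**Figure D4:**
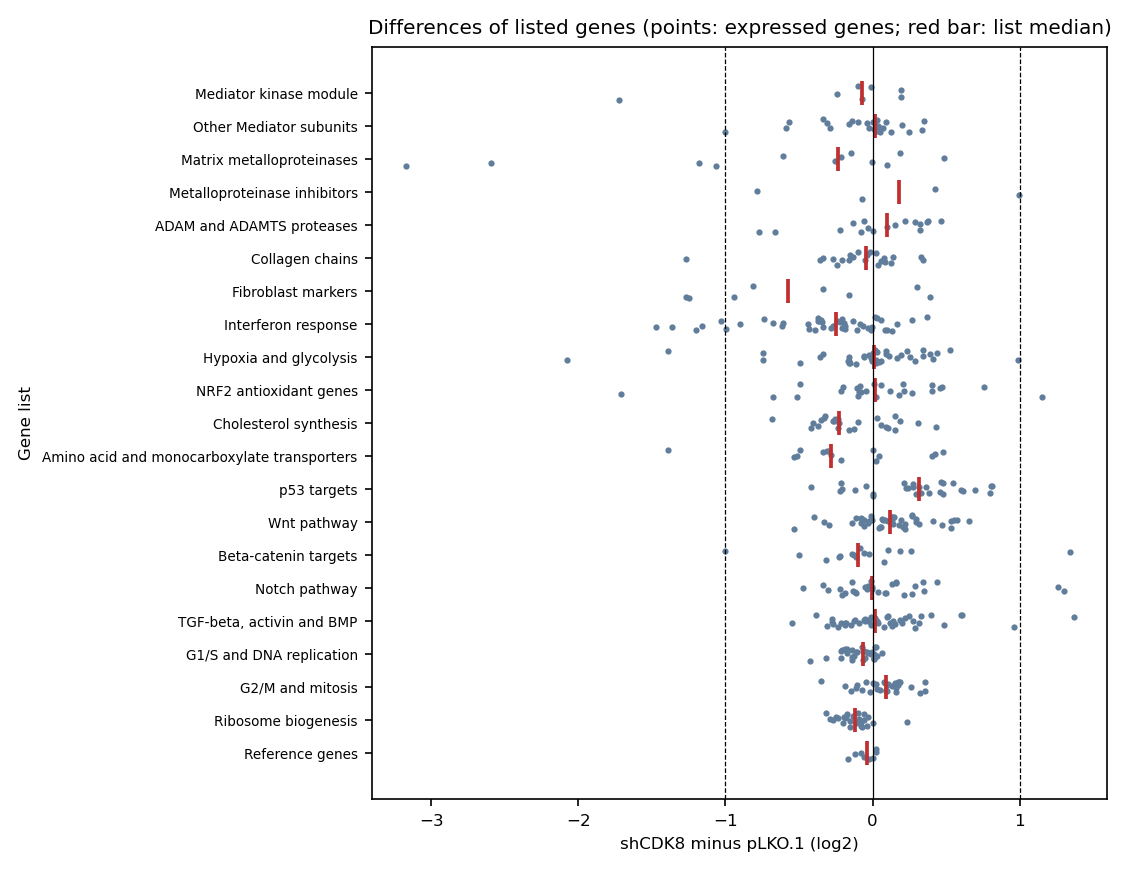
Difference of the shCDK8 and pLKO.1 arrays (log2, horizontal axis) for the expressed members of 21 gene lists, with 1 point per gene and a red bar at the list median. Dashed lines mark 2-fold, and the metalloproteinase, fibroblast, interferon and cholesterol bars lie left of 0 while the p53 bar lies at 0.31.

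Set beside the other arrays, a gene's values show which array lay apart. The DMSO array is a single culture with solvent and no replicate of the vector line. Which line departed therefore cannot be told. Of the 46 lower genes shCDK8 was the lowest of the 4 arrays in 39, where it was the lowest in 28.7% of all expressed genes. It was the highest in 26 of the 28 higher genes, where it was the highest in 28.7% of all expressed genes. These shares follow in part from the choice of genes and are given as a description. In 17 of the 46 shCDK8 lay at least 2-fold under each of the other 3 arrays. These were Mmp13, Mmp3, Egln3, Kcnab2, Gfra2, Cdk8, Nqo1, Oasl1, Krt20, Col3a1, Actr6, Pdgfrb, Adgrg6, Elovl5, Omd, Rps15 and Olfm1. Among them Adgrg6, Omd and Rps15 had shCDK8 values under the limit and fell short of 2-fold from pLKO.1 with the floor. In 11 of the 28 shCDK8 lay at least 2-fold over each of the other 3 arrays. These were Atp1b1, Sdc3, Fst, Ccn4, Notch2, Dzip1, Prrg4, Tigit, Sgms2, C920009B18Rik and the microRNA locus Mir709. Of these, Ccn4 and Mir709 reached the expression limit on the shCDK8 array alone. The pLKO.1 array lay 2-fold outside the other 3 in 1 gene of the 74, the microRNA locus Mir142. Over all 14272 expressed genes the Senexin B array lay 2-fold under the other 3 in 16 and 2-fold over them in 59. For the DMSO array these counts were 2 and 0.

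Against the DMSO array 27 of the 46 lower genes and 15 of the 28 higher genes were also past 2-fold. In that comparison 0.329% of expressed genes were 2-fold lower and 0.266% higher, and it shares the shCDK8 array. The 19 lower genes that were not past 2-fold against DMSO included all of the interferon genes but Oasl1, and Tlr7, Glp1r, Slc16a3, Lpar4, Sox9 and Apln. Of the genes given above as past 1.5-fold, Med14 (-0.51), Adamts9 (-0.55), Ccn2 (-0.53), Ndufb3 (-0.55), Gstm2 (0.22), Dnajc3 (0.54), Wnt10b (0.39), Tgfbr1 (0.53) and Tnfrsf10b (0.51) fell short of it against DMSO. The inhibitor comparison, Senexin B minus DMSO, shares no array with this one. In it 16 of the 46 lower genes lay below 0, where 55.1% of all expressed genes did, and 13 of the 28 higher genes lay above 0, where 44.8% did. Of the 46, 5 were 2-fold lower with Senexin B and 8 were 2-fold higher, where 0.252% and 0.687% of expressed genes were.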

How the data were processed

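RNA of 4 CT26 cultures was measured, 1 Affymetrix Mouse Gene 2.0 ST array each. The deposited values are log2 values per probe set, made by the authors with RMA and Affymetrix Expression Console, per the submitters' processing notes. The sources used here name neither versions nor settings, nor say if normalization was joint over the 4 arrays. RMA equalizes array distributions, which removes shifts common to all genes, and compresses differences of dim probe sets. The number of arrays, 1 a group, limits the precision.

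Gene symbols came from GEO's annotation of the platform: 23521 of 41345 had 1 symbol, 1814 had several and 16010 had none. Of the 23521, 23477 matched RefSeq (GRCm38.p6). For the 1082 genes with several probe sets the one with the highest mean was used. Genes reaching the 40th percentile of gene values, 5.98, on any array were counted as expressed. Differences of log2 values were taken with Python 3.11.15 and pandas 2.3.3, and the calculation was tested on simulated data. The 55 gene lists (1200 genes, 1110 measured, 975 expressed) and the members were chosen with earlier results of these data known. Genes were named from those a rule admits: all at least 2-fold apart other than unnamed loci, pseudogenes, small RNAs and receptor segments (2 excluded in each direction), all measured metalloproteinases, inhibitors and kinase module genes, up to 5 of the largest differences and any gene past 1.5-fold per list, and 3 on each side of the 2-fold limit. Cell type markers, family members, regulators and neighbours named beside them (such as Axin2, Myc, Mdm2, Hif1a, Nfe2l2, Notch1, Ret and Sdc2), and the loci C920009B18Rik, Mir709 and Mir142, fall outside the rule and were chosen after their values were seen. Alternatives were other filters, thresholds, scalings, probe set choices, list means, a floor, and other reference arrays.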

Additional observations from a re-analysis of the deposited data

Results flagged for a closer look

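Probe sets outside the gene analysis also differed. Of 1072 probe sets with several gene symbols that reached the expression limit, 4 lay at least 2-fold under pLKO.1 in shCDK8 and 7 at least 2-fold over it, beside 2 and 6 in pLKO.1 minus DMSO. Of 7211 probe sets with no symbol in the annotation used, 173 were at least 2-fold lower and 127 at least 2-fold higher, beside 56 lower and 207 higher between the controls. They stand out because the count of lower probe sets exceeds that between the control arrays, and the difference between the counts was not tested. The difference of shCDK8 and pLKO.1 had an SD of 0.45 over the probe sets with no symbol and of 0.26 over the expressed genes. Between the controls these SDs were 0.42 and 0.19, so the probe sets with no symbol spread widely there too. In all, 4.16% of them were 2-fold apart between shCDK8 and pLKO.1, and 3.65% between the controls.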

How the results depend on the processing

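With no replicate, no alternative bears on the spread between cultures. No paired analysis was possible because each group has 1 array. With no filter on low values 52 genes were 2-fold higher and 53 lower. At 1.5-fold the counts were 264 lower and 238 higher, and at 3-fold 7 lower and 4 higher. Under the 60th percentile filter, either rescaling, the mean of probe sets, single probe sets, the floor and the other reference arrays the counts lay from 36 to 50 lower and from 21 to 38 higher. The DMSO array as reference gave 47 and 38, but shared 27 and 15 genes with the pLKO.1 reference. Cdk8 was at -1.62 against DMSO. Against DMSO the signs turned for the medians of the interferon response (0.12) and of the interferon-inducible GTPases (0.10), and for Irf7 (0.13), Oasl2 (0.20) and Oas1g (0.21); the cause was not tested. Of the list medians at least 0.2 in size, that of p53 targets lay between 0.25 and 0.35 over the alternatives. That of the metalloproteinases lay between -0.84 and -0.064. The median of cholesterol genes lay between -0.23 and -0.087, and that of fibroblast markers between -0.82 and -0.23.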

Other observations

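Further genes past 1.5-fold were feedback regulators of growth factor signalling and ligands. Spry2, an inhibitor of receptor tyrosine kinase signalling, stood at 8.34 in DMSO, 7.76 in Senexin B, 8.46 in pLKO.1 and 9.26 in shCDK8, and Dusp5, a phosphatase of ERK, at 8.20, 7.21, 8.34 and 8.96. In both genes the hairpin array was the highest and the inhibitor array the lowest. Esm1, a secreted proteoglycan, had the same order, at 9.27, 7.17, 9.44 and 10.40, as did Mertk, a receptor for Gas6, at 7.89, 7.02, 7.88 and 8.57. Among chemokines Cxcl10 was at -0.83, Ccl2 at -0.53, Cxcl2 at 0.67 (0.33 against DMSO) and Ccl17 at 0.63.

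Some of the genes past 2-fold were neighbours in RefSeq order of GRCm38.p6, counting protein-coding genes only. Oasl1 and Oasl2 are adjacent, and Oas2 and Oas1g are 5 genes apart. Neighbours also lay on opposite sides: Elovl5 (-1.12) and Gsta4 (1.15) on chromosome 9 have 3 genes between them, of which Fbxo9 was at 0.30 and Cilk1 at 0.03, and Mmp9 (-1.06) and Pltp (1.13) on chromosome 2 have 2 genes between them. These pairs were picked after their values were seen.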
